A study of Mus musculus with 6 samples.

Results

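The Slc25 genes encode the mitochondrial solute carriers, and their RNA was compared between IL-2-activated CD8+ T cells (CD8-TC) of Runx3-/- and WT mice. Members were all genes whose symbol on the array began with Slc25a, taken from rows assigned to exactly 1 gene, with the row of the highest mean kept for each gene. The rule found 46 genes, on 50 rows, among 19938 genes in all, and it used no measured difference. Spleen cells of ICR mice, given in the labels as males of 6 weeks, were taken for 3 biological replicates of each genotype. Their CD8-TC were stimulated for 2 days through the T cell receptor, with anti-CD3e, together with anti-CD28. They were then grown for 4 days with IL-2 at 100 units per ml. RNA from each replicate was read on its own array (Affymetrix, mouse gene ST 1.0), and whether a replicate was 1 mouse or several is not stated. Runx3-/- cells alone had been sorted by flow cytometry, against CD11c+ dendritic cells before culture and against CD4+CD8- cells after it, so that sorting and genotype cannot be told apart. Which exons of Runx3 were disrupted was not known here.

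Carriers of this family are small proteins built of repeated pairs of membrane helices, and nearly all of them sit in the inner mitochondrial membrane, which is otherwise closed to charged metabolites. They exchange ADP for ATP, bring in phosphate, amino acids, acylcarnitines, iron and cofactors, and let citrate out for lipid synthesis. Activated T cells draw on these routes when they grow, since the cytosol then needs ATP, citrate, aspartate and one-carbon units made with the help of mitochondria.

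Values are log2 expression as deposited, where 1 unit is a doubling. The targeted gene itself did not separate the groups. Runx3 stood at 8.91, 9.11 and 9.27 on the arrays labelled Runx3-/-, against 8.77, 8.26 and 9.16 on the WT arrays. Since probes lie along the whole transcript, Runx3 RNA itself leaves the genotype labels unchecked. Arrays of Runx3-/- cells are named KO-labelled below, and each direction rests on those labels. One WT array, WT1, carried Xist at 10.6 although it was labelled male, while the other 5 arrays had it below 4.26, the median of the whole table. KO2 stood apart in cell-cycle genes, as given below. All 9 T cell markers on the array were bright in both groups, their mean lying between 10.5 and 10.8 on KO-labelled arrays and between 10.2 and 10.6 on WT arrays. All 9 markers of dendritic and myeloid cells and both markers of red cells on the array were dim on every array, as were 5 of 6 B cell markers, the exception being Cd79b at -0.93 (adjusted p = 0.148). Of 6 NK cell markers, 2 were dim on every array, Klra8 and the defining receptor Ncr1. The mean of the list lay between 4.82 and 5.49 on KO-labelled arrays and between 5.87 and 6.34 on WT arrays. That mean is not a measure of NK cells alone, since the paper describes Eomes, a member of the list, as acting in CD8-TC too. Past the study's threshold, which is defined below, Klrb1c (adjusted p = 0.169), Eomes (-1.76, adjusted p = 0.331) and Gzma (-2.55, adjusted p = 0.216) were lower in KO-labelled cells, as was Cd79b. Klrb1c lay under the background level of 4.26 on all 3 KO-labelled arrays (3.74, 3.76 and 3.77), against 4.34, 5.66 and 5.94 on WT arrays, so no size is given for its difference. The remaining NK marker, Itga2, went the other way, at 0.11. The 5 markers of helper T cells averaged between 6.22 and 6.69 on KO-labelled arrays and between 6.19 and 6.32 on WT arrays. Among helper markers Cd4 (0.95, adjusted p = 0.25) and Zbtb7b (0.64, adjusted p = 0.342) were higher at that threshold, as was Cd5 (1.12, adjusted p = 0.216) among T cell markers. Of the other helper markers, Foxp3 (-0.32) and Il2ra (-0.30) lay below 0, and Cd40lg was dim on every array. Cd4 and Zbtb7b are not cell type markers alone, since the paper names both among genes that earlier work tied to Runx3 loss in developing CD8-TC. It also reports Cd4 as raised without Runx3 in resting cells. The part of these marker differences in the values below was not tested.

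Few carriers passed a threshold between the genotypes. A gene was tested if at least 1 of its 6 values reached 4.26, the median that stands in for a background level, and 36 of the 46 carriers were. None of the 36 passed an adjusted p of 0.05 in limma (smallest adjusted p = 0.283), beside 0.629% of all 10021 tested genes, while 3 carriers had an unadjusted p under 0.05, beside 14.1% of all tested genes. At the limits that the study set, a change of 1.5-fold with p under 0.05 before adjustment, no carrier was higher in KO-labelled cells, beside 3.97% of all tested genes, and 2 carriers were lower, Slc25a20 and Slc25a53, beside 4.33%. A count of 2 in 36 is close to that background. These limits were applied to the p of limma with moderated variances, whereas the study worked in Partek, so its calls can differ. Without moderation no carrier was lower at these limits, and 508 of all tested genes passed either way, against 832 with it. The number of changed genes that the paper reports for these cells lies nearer the count without moderation. Its filter and set of genes were not matched here. The groups did not overlap for 1 carrier higher in KO-labelled cells, against 11.6% of all tested genes, and for 2 lower ones, against 10.9%.

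The differences were also small. Over the 36 carriers the median log2 difference, KO-labelled minus WT, was -0.096, against -0.015 over all tested genes, and 23 lay below 0 and 13 above it, where 52.0% of all tested genes lay below 0. The median size of a difference, whatever its sign, was 0.157 for carriers and 0.206 for all tested genes. The 5th and the 95th percentile were -0.59 and 0.36 for carriers and -0.64 and 0.60 for all tested genes. For 30 of the 36 carriers the 95% interval of the difference stayed within 1 log2 unit of 0, so that a doubling or halving lay outside it, and for 17 it stayed within 1.5-fold. The widest intervals belonged to genes whose replicates spread most, Slc25a53, Slc25a17 and Slc25a37. In bulk RNA, fewer cells of a type and less RNA per cell cannot be told apart.

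**Figure D1:**
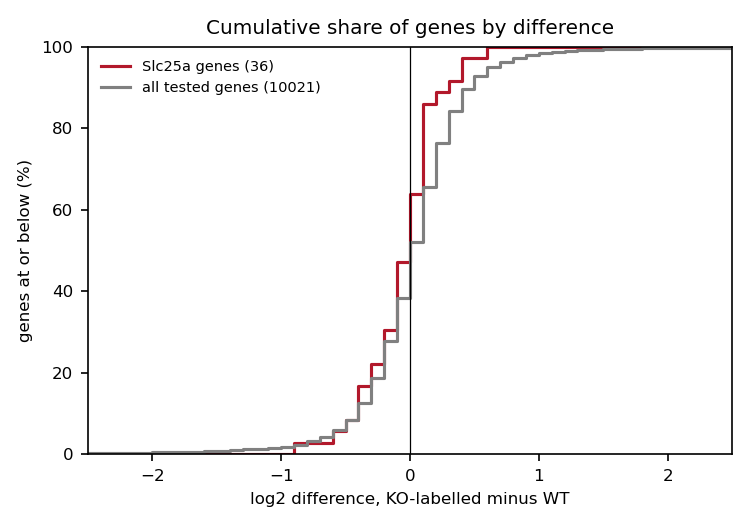
Cumulative share of genes (vertical axis, percent) whose log2 difference, KO-labelled minus WT, is at or below the value on the horizontal axis, counted in steps of 0.1, for the 36 tested carriers (red) and all 10021 tested genes (grey). Both curves rise close to 0, with medians of -0.096 and -0.015.

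Slc25a20 encodes the carnitine-acylcarnitine carrier, through which long-chain fatty acids reach the matrix for oxidation. Its level was 7.76, 7.57 and 7.32 on KO-labelled arrays, against 8.56, 7.86 and 8.15 on WT arrays. All 3 KO-labelled values lay below all 3 WT values. The difference was -0.64 (SE 0.22, 95% interval -1.16 to -0.12, adjusted p = 0.283), or 1.56-fold lower in KO-labelled cells. It was -0.45 without WT1 and -0.52 without KO3, and then no longer reached the study's threshold, nor did it without moderation of the variances. Both carnitine palmitoyltransferases, which make and take apart the acylcarnitines that it carries, had values below 0 that did not pass either threshold, -0.58 for Cpt1a (adjusted p = 0.535) and -0.48 for Cpt2 (adjusted p = 0.408). Cpt2 stood at 5.38, 4.71 and 5.32 on KO-labelled arrays, against 5.88, 5.65 and 5.33 on WT arrays, and the groups overlapped through KO1.

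Slc25a53, an X-linked carrier with no role given here, showed the difference of greatest size among the 36 genes. It stood at 5.21, 4.76 and 4.12 on KO-labelled arrays, against 6.00, 5.07 and 5.91 on WT arrays. The groups overlapped, since WT2 lay below KO1, and KO3 fell under the median of the table, where this kind of summary compresses changes. The difference was -0.96 (SE 0.35, 95% interval -1.79 to -0.14, adjusted p = 0.296). It did not reach the study's threshold without KO2 (-0.995), KO3 (-0.675), WT1 (-0.795) or WT3 (-0.84), or without moderation of the variances. The value of WT1, the array with Xist, was the highest of the 6.

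Slc25a28 encodes mitoferrin-2, an iron carrier, and was the only tested carrier whose KO-labelled values all lay above the WT values. It stood at 6.50, 6.65 and 6.48 on KO-labelled arrays, against 6.24, 6.08 and 6.24 on WT arrays. Its replicates were tight, with an SD of 0.0953 in KO-labelled cells and 0.0911 in WT cells (n = 3 each), but the change was small, 0.35 (SE 0.13, 95% interval 0.043 to 0.67, adjusted p = 0.306), and under the 1.5-fold limit. Its unadjusted p stayed under 0.05 in 6 of 16 alternative settings, and exceeded it whenever any 1 array was left out (differences of 0.30 to 0.39). The other mitoferrin, Slc25a37, known best from erythroid cells, had a mean of 5.90 in both groups and a difference that rounded to 0.00 (95% interval -0.82 to 0.82). Its 6 values varied widely, 5.73, 6.38 and 5.60 on KO-labelled arrays and 6.39, 5.21 and 6.10 on WT arrays. WT1 and KO2 were highest and WT2 was lowest. Without KO2 and WT2 the value was -0.58.

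The start-site sequences of these genes are shown because they are the 3 carriers with an unadjusted p under 0.05 and because Runx3 binds DNA at the RUNX motif. Each runs from 250 bases before to 50 bases after an annotated start of the gene (RefSeq, GRCm38.p6), along the gene's strand, and capitals mark any match to the motif on either strand. The motif was searched as TGTGGT and in its related spelling TGTGGC, and likewise as TGCGGT and as the related TGCGGC. None of these spellings overlaps another at the same position. Slc25a53 has 2 annotated starts.
Slc25a20, chr9:108661886-108662185, plus strand: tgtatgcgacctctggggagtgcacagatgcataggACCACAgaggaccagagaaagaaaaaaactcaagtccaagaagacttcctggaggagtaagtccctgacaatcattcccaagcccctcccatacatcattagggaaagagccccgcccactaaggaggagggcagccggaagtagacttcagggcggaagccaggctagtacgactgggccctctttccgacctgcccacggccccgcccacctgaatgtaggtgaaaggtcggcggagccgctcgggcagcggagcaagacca
Slc25a53, chrX:136992983-136993282, minus strand: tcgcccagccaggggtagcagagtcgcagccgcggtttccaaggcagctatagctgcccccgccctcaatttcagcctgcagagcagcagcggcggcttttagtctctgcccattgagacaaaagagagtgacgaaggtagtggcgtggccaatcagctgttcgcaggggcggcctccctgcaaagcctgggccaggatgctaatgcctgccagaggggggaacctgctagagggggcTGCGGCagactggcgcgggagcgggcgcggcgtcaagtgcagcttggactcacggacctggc
Slc25a53, chrX:137038253-137038552, minus strand: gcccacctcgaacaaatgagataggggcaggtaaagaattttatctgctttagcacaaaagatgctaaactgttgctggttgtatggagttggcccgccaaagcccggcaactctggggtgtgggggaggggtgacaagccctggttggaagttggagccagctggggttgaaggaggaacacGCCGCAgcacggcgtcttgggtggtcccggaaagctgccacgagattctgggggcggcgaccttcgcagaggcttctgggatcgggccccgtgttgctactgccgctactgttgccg
Slc25a28, chr19:43674832-43675131, minus strand: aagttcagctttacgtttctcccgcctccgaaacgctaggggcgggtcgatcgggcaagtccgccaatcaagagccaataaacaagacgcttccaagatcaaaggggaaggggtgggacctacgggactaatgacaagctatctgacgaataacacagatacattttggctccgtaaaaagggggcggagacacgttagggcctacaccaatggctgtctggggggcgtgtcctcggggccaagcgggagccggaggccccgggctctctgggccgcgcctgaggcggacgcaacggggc

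The window of Slc25a20 held 1 match, to TGTGGT on the opposite strand, whose first base lies at position -214 from the start site. Each window of Slc25a53 held 1 match to TGCGGC, at -12 on the same strand in one and at -67 on the opposite strand in the other, and the window of Slc25a28 held 0. Such matches are common, since 45.2% of all 32851 start-site windows of this length held at least 1. Start-site windows were at hand for 36 of the 46 carriers, and 20 of their 46 windows held a match (43.5%), as did 14 of 37 windows of tested carriers (37.8%). A match describes the letters only, and binding was not measured on these arrays. The paper places most Runx3-bound regions of resting CD8-TC far from start sites, outside windows of this length.

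**Figure D2:**
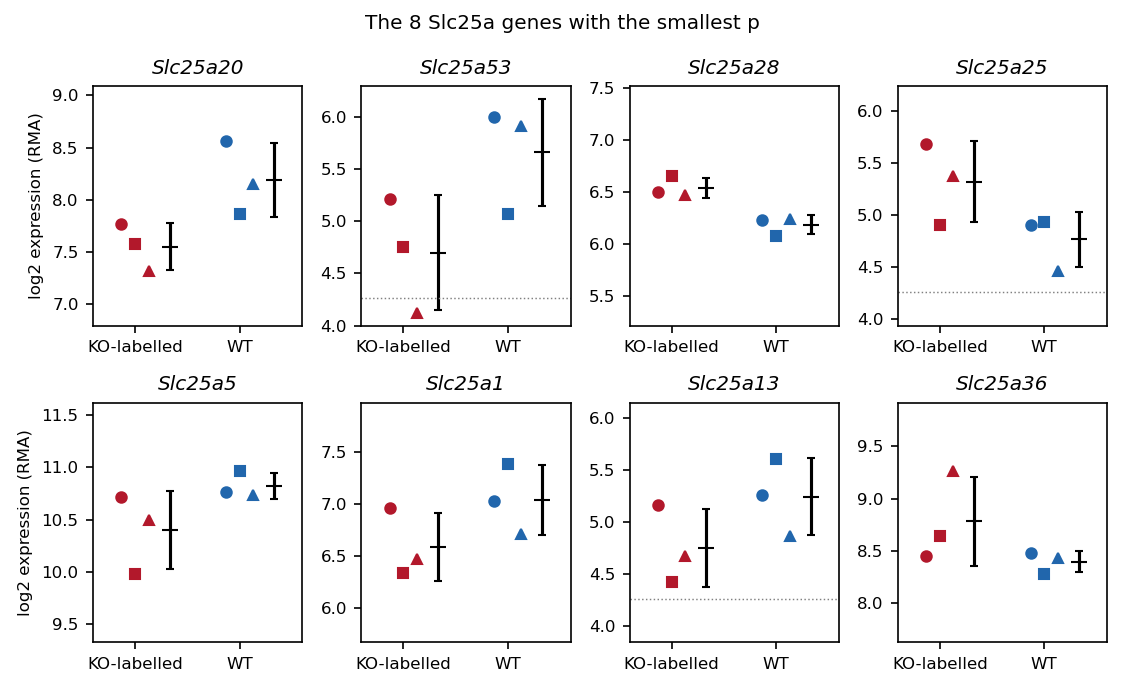
Log2 expression (vertical axis) on each array of the 8 carriers with the smallest p, KO-labelled in red and WT in blue, with circles, squares and triangles for replicates 1, 2 and 3, bars for mean and SD (n = 3) and a dotted line at 4.26, the median of the table, where it falls in range; every panel spans the same number of log2 units. The groups are apart for Slc25a20, Slc25a28 and Slc25a5 and overlap for the other 5.

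Carriers of adenine nucleotides and phosphate bring ADP and phosphate to ATP synthase and take out the ATP that it makes. Slc25a5, the ADP/ATP carrier ANT2 of dividing cells, stood at 10.7, 9.98 and 10.5 on KO-labelled arrays, against 10.8, 11.0 and 10.7 on WT arrays. The groups did not overlap, but KO1 lay just under the lowest WT value and KO2 far below it. The difference was -0.42 (SE 0.21, 95% interval -0.92 to 0.075, adjusted p = 0.412), and it was -0.21 without KO2. A pair of further rows on the array carry the same symbol and gave -0.45 and -0.40. Whether those rows read the same transcripts was not examined, so they are not counted as independent measurements.

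Slc25a4, the ADP/ATP carrier ANT1, stood at 10.7, 10.2 and 10.3 on KO-labelled arrays, against 10.6, 10.6 and 10.4 on WT arrays. Slc25a3, the phosphate carrier, stood at 10.0, 9.75 and 9.85 on KO-labelled arrays, against 9.98, 10.0 and 9.87 on WT arrays. The groups overlapped for both genes, and KO2 was the lowest array for each. Their differences, -0.125 for Slc25a4 (95% interval -0.51 to 0.26) and -0.0995 for Slc25a3 (95% interval -0.42 to 0.22), had intervals that stayed within 1.5-fold. The levels of different genes are not compared here, since probes differ in how strongly they bind.

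The ATP-Mg/phosphate carriers, which calcium activates and which set the adenine nucleotide content of the matrix, had values above 0. Slc25a25 stood at 5.68, 4.91 and 5.38 on KO-labelled arrays, against 4.91, 4.94 and 4.46 on WT arrays. KO1 and KO3 lay above every WT value and KO2 among them. The difference was 0.55 (SE 0.24, 95% interval -0.0087 to 1.11, adjusted p = 0.359), and it passed the study's threshold only in fits that left KO2 out or gave arrays unequal weight (0.76 without KO2). Slc25a23 was at 0.25 (95% interval -0.13 to 0.63) and Slc25a24 at 0.084 (95% interval -0.50 to 0.67). Slc25a43, which was grouped with these genes and has no role given here, was at -0.077, with all 6 values close to the median of the table.

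Carriers of di- and tricarboxylates link the citric acid cycle to the cytosol. The 4 tested genes grouped here, among them Slc25a35 without a given substrate, all had values below 0, beside 52.0% of all tested genes. Their median was -0.22 and none passed either threshold. Slc25a1, the citrate carrier that feeds fatty acid and sterol synthesis, stood at 6.96, 6.34 and 6.47 on KO-labelled arrays, against 7.03, 7.38 and 6.71 on WT arrays. KO1 lay within the WT range, and KO2 and KO3 lay below it. The difference was -0.45 (SE 0.24, 95% interval -1.01 to 0.11, adjusted p = 0.433). It was -0.28 without WT2, and it passed the study's threshold without KO1 (-0.63) or WT3 (-0.615). Slc25a11, the oxoglutarate carrier, was at -0.16 (95% interval -0.53 to 0.22). Slc25a10, the dicarboxylate carrier, was at -0.043, and its sign turned with several settings. Slc25a35, a carrier with no substrate given here, was at -0.28 (95% interval -0.70 to 0.14).

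Among amino acid carriers, 4 of 6 tested genes lay below 0, beside 52.0% of all tested genes, and none passed either threshold. Slc25a13, an aspartate-glutamate carrier of the malate-aspartate shuttle that brings reducing equivalents into mitochondria, stood at 5.16, 4.43 and 4.68 on KO-labelled arrays, against 5.26, 5.60 and 4.87 on WT arrays. The groups overlapped through KO1, and the difference was -0.49 (SE 0.26, 95% interval -1.10 to 0.12, adjusted p = 0.438). It was -0.31 without WT2 and -0.32 without KO2, and it passed the study's threshold without KO1 (-0.69) or WT3 (-0.67). Its paralog Slc25a12, which performs the same exchange, was at -0.0042 (95% interval -0.44 to 0.43). Whether the 2 paralogs differ from each other was not tested. Slc25a38, which brings glycine to heme synthesis, was at -0.36 (95% interval -0.90 to 0.18), and KO2 at 5.82 was its lowest array, without which it was -0.13. The remaining values were -0.18 for Slc25a15, the ornithine carrier of the urea cycle, 0.073 for Slc25a44, a branched-chain amino acid carrier, and 0.0062 for Slc25a22, a glutamate carrier.

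Carriers of cofactors and nucleotides went both ways, with 3 of 8 tested genes above 0 and 5 below. Slc25a36, a pyrimidine nucleotide carrier, stood at 8.45, 8.64 and 9.26 on KO-labelled arrays, against 8.47, 8.28 and 8.43 on WT arrays. KO3 was alone far above the others, and KO1 lay within the WT range. The difference was 0.39 (SE 0.22, 95% interval -0.14 to 0.92, adjusted p = 0.471), it was 0.15 without KO3, and a second row of the gene gave 0.35. Its relative Slc25a33, also a pyrimidine nucleotide carrier, was dim, with WT2 at 4.30 as its only value above the median of the table, and was at -0.15. Slc25a17, the member of the family that sits in the peroxisome, stood at 8.65, 7.22 and 8.09 on KO-labelled arrays, against 8.78, 8.61 and 8.29 on WT arrays. KO2 was lowest by a wide margin, and the difference of -0.57 (95% interval -1.41 to 0.26, adjusted p = 0.498) was -0.19 without it and passed the study's threshold at -0.90 without KO1.

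Slc25a42, which carries coenzyme A, was at -0.32 (95% interval -0.86 to 0.23), with WT2 at 4.71 as its only value above the median of the table. Slc25a16, which has been tied to coenzyme A too, was at -0.17 (95% interval -0.58 to 0.24). The values were 0.12 for Slc25a26, the carrier of the methyl donor S-adenosylmethionine, 0.011 for Slc25a32, which serves folate and flavin supply, and -0.071 for Slc25a51, the NAD carrier. For these 3 genes the 95% intervals stayed within 1.5-fold, the widest being -0.29 to 0.53 for Slc25a26. For redox, Slc25a39 and Slc25a40 carry glutathione into mitochondria, and they were at -0.28 (95% interval -0.68 to 0.13) and 0.070 (95% interval -0.23 to 0.37). A second row of Slc25a40 gave 0.15.

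Members related to the uncoupling proteins showed little difference. Slc25a14 was at -0.20 (95% interval -0.54 to 0.13), Slc25a30 at -0.16 (95% interval -0.46 to 0.14) and Slc25a27 at 0.041 (95% interval -0.61 to 0.69). Slc25a46, which lies in the outer membrane and takes part in shaping the mitochondrial network, was at -0.093 (95% interval -0.42 to 0.23). Slc25a45 stood at 8.55, 8.54 and 8.59 on KO-labelled arrays, against 8.87, 8.09 and 8.59 on WT arrays. Its 3 KO-labelled values lay closer together (SD 0.0267) than those of any other tested carrier, inside a broad WT range (SD 0.399), and its difference was 0.042.

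**Figure D3:**
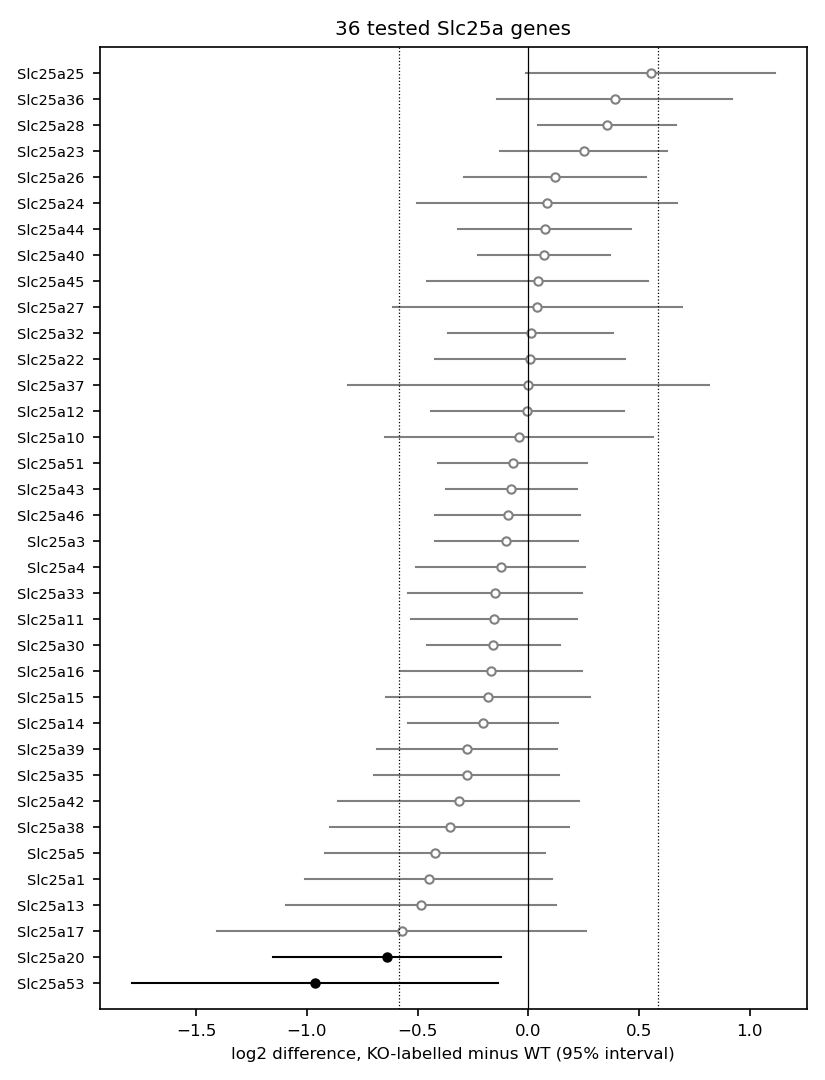
Log2 difference, KO-labelled minus WT (horizontal axis), with its 95% interval from limma for each of the 36 tested carriers, in order of the difference; dotted lines mark a 1.5-fold change. Filled black points are the 2 genes past the study's threshold with moderated variances, Slc25a53 at -0.96 and Slc25a20 at -0.64. Neither passed it without moderation, and Slc25a25 has the highest value at 0.55.

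The 10 carriers that were not tested were dim on every array, with all their values between 3.13 and 3.85. They were Slc25a2 (0.022), Slc25a18 (0.16), Slc25a21 (-0.10), Slc25a29 (0.048), Slc25a31 (0.010), Slc25a34 (0.013), Slc25a41 (0.0096), Slc25a47 (0.15), Slc25a48 (-0.0062) and Slc25a54 (0.066), with the log2 difference in parentheses. Several of these are known from other tissues, Slc25a31 as the ADP/ATP carrier of the testis and Slc25a47 from the liver. The KO-labelled values of Slc25a18, a glutamate carrier, lay above its WT values, 3.55, 3.53 and 3.60 against 3.40, 3.34 and 3.45, all of them under the background level, where an order of values has little weight. Among tested carriers, 5 fell under that level on at least 1 array, namely Slc25a15, Slc25a33, Slc25a42, Slc25a43 and Slc25a53.

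Single arrays stood out within each genotype. KO2 had the lowest value for 15 of the 36 carriers and KO3 for 9, while WT1 had the highest for 12 and WT2 for 11. WT2 also had the lowest value for 7. With every gene first centred on its mean over the 6 arrays, the carriers averaged over genes stood at 0.0638, -0.169 and -0.0740 on KO1, KO2 and KO3, against 0.139, 0.0534 and -0.0130 on WT1, WT2 and WT3. KO1 thus lay above WT2 and WT3. In the same measure all tested genes had KO2 lowest, at -0.128, and cell-cycle genes had it far lower, at -1.44 for 20 S phase genes and -1.41 for 19 G2/M genes, with the other 5 arrays between -0.37 and 0.73. The part of the cell cycle in the low values of KO2 was not tested. With the mean of the G2/M genes as a covariate, no carrier passed an adjusted p of 0.05 and the median of the 36 differences was -0.095. Without KO2, 23 of the 36 carriers lay below 0 (median -0.11), beside 46.5% of all tested genes. The count was 24 without KO2 and WT2 (median -0.049), beside 46.5%. It was 25 without WT2 (median -0.092), beside 51.5%, and 24 without WT1 (median -0.090), beside 49.3%.

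**Figure D4:**
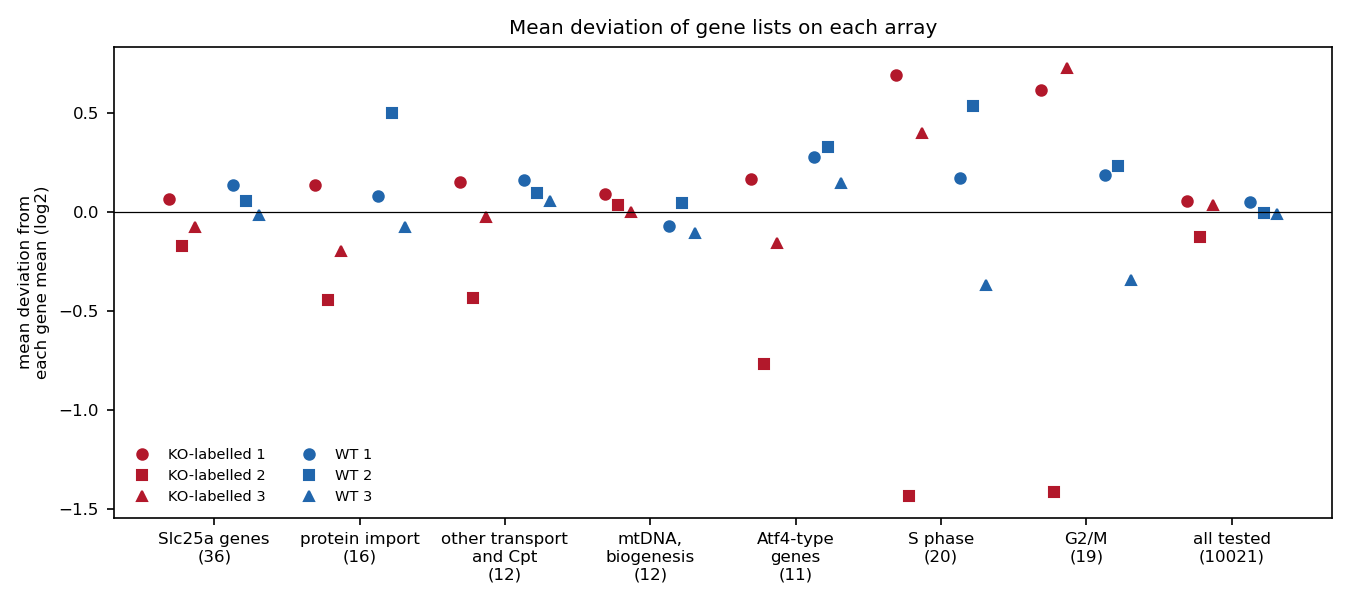
Average over genes of the centred log2 value (vertical axis; each gene minus its mean over the 6 arrays) for 7 gene lists and all tested genes, KO-labelled in red and WT in blue, with the number of genes in parentheses. KO2 (red squares) is lowest at -0.13 over all tested genes, at -0.17 for the carriers and at -1.44 for S phase genes, but not for genes of mitochondrial DNA and biogenesis, where it is at 0.036 and WT3 is lowest at -0.10.

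Other genes through which mitochondria exchange solutes and proteins were read in the same fit. Members of the carrier family under other names included Mtch2, an outer-membrane protein with a role in cell death and protein insertion, at 9.04, 8.29 and 8.76 on KO-labelled arrays, against 9.13, 9.70 and 9.05 on WT arrays. All KO-labelled values of Mtch2 lay below the WT values by a hair, KO1 and WT3 being nearest, and the difference was -0.59 (SE 0.26, adjusted p = 0.361). Its paralog Mtch1 was at -0.21 (adjusted p = 0.691), and the uncoupling proteins Ucp1 and Ucp3 were dim on every array. Of 12 further tested genes, for other channels and transporters of mitochondria and for the enzymes Cpt1a and Cpt2 named above, 10 lay below 0 and none passed either threshold, with Mpc1, a subunit of the pyruvate carrier, at -0.34 (adjusted p = 0.693) and Mcu, the pore of the calcium uniporter, at 0.41 (adjusted p = 0.356). Of all tested genes, 52.0% lay below 0. Without KO2, 6 of the 12 lay below 0, beside 46.5% of all tested genes. The count was 9 without WT2, beside 51.5%, and 9 without WT1, beside 49.3%. It was 7 without KO2 and WT2, beside 46.5%.

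All 16 tested genes of mitochondrial protein import lay below 0, where 52.0% of all tested genes did, with a median of -0.29. None passed an adjusted p of 0.05 in limma and 1 passed the study's threshold as lower, beside 4.33% of all tested genes, namely Tomm22, a receptor of the outer-membrane translocase, at -0.60 (SE 0.25, adjusted p = 0.341). Tomm22 stood at 7.51, 6.69 and 7.48 on KO-labelled arrays, against 7.73, 8.01 and 7.74 on WT arrays. With each gene centred on its mean, KO2 was the lowest array for this list, at -0.44, and WT2 the highest, at 0.50. Leaving these arrays out therefore had to move the differences toward 0 on average, and they were picked after the values were seen. The count was 14 of 16 without KO2, beside 46.5% of all tested genes, and 12 of 16 without WT2, beside 51.5%. Without both it was 8 of 16, beside 46.5%, and the median was -0.024. Without WT1 it was 15 of 16, beside 49.3%.

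Regulators and enzymes of mitochondrial DNA were split, with 6 of 12 tested genes above 0. Of these 12, 2 were higher in KO-labelled cells at the study's threshold, beside 3.97% of all tested genes, both of them subunits of the mitochondrial DNA polymerase. Polg, the catalytic subunit, stood at 6.77, 6.80 and 6.96 on KO-labelled arrays, against 6.13, 5.64 and 5.91 on WT arrays. The groups were well apart, and the difference was 0.95 (SE 0.17, adjusted p = 0.0686). Polg2, the accessory subunit, was at 0.60 (SE 0.18, adjusted p = 0.245), with 5.79, 5.94 and 6.17 on KO-labelled arrays, against 5.58, 5.08 and 5.45 on WT arrays.

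Of 11 tested genes that the transcription factor Atf4 is known to drive when amino acids or mitochondria fail, together with Atf4 itself, 9 lay below 0, beside 52.0% of all tested genes, with a median of -0.48, and 2 were lower at the study's threshold, beside 4.33%. Asns, asparagine synthetase, stood at 7.01, 4.71 and 5.44 on KO-labelled arrays, against 7.27, 8.18 and 7.83 on WT arrays. The groups did not overlap, and the difference was -2.04 (SE 0.56, adjusted p = 0.208). Sesn2, a stress-induced sensor of leucine, was at -0.94 (SE 0.31, adjusted p = 0.267). It stood at 5.52, 4.80 and 5.15 on KO-labelled arrays, against 6.40, 6.41 and 5.46 on WT arrays, and the groups overlapped, since KO1 lay above WT3. Without KO2, 7 of the 11 lay below 0, with a median of -0.18, beside 46.5% of all tested genes. The count was 10 without WT2 (median -0.40), beside 51.5%, and 9 without WT1 (median -0.52), beside 49.3%. It was 8 without KO2 and WT2 (median -0.15), beside 46.5%.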

How the data were processed

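RNA of 6 cultures was read on Affymetrix mouse gene ST 1.0 arrays. The deposited values are log2 expression, made by the authors in Partek with robust multichip average (RMA) and GC correction, 1 column per array. No software version was stated in the sources used. RMA gives no detection calls and compresses low values, and the number of arrays limits the precision. Of 35399 rows, 21789 had exactly 1 gene symbol, 1621 had several and 11989 were not named here. Groups and replicate numbers came from the labels.

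KO-labelled and WT arrays were compared over 10021 genes with limma 3.58.1 in R 4.3.3 (lmFit, eBayes, two-sided, no covariate), with Benjamini-Hochberg adjustment over all genes tested. Replicates are called biological repeats in the study's methods, and whether each was 1 mouse is not stated. Members, gene lists and tests were chosen with earlier results of these data known. The text names every carrier, gives per-array values for the 8 with the smallest p and the 5 with the highest mean, and names members of other lists past the study's threshold besides Mtch1, Mtch2 and Mpc1. Alternatives changed the filter, scaling, row per gene, prior, moderation, array weights, covariate and arrays used. Slc25a17, Slc25a37, Slc25a38, Slc25a18, Ucp1, Ucp3, Ncr1, Klra8, Itga2, Foxp3, Il2ra, Cd40lg, Cpt1a, Cpt2 and Mcu were singled out after their values were seen. Ucp2 and Mpc2 had no value here. On simulated data of 10021 genes for this comparison, 40% of genes moved by 1 log2 unit and 84% moved by 2 passed an adjusted p of 0.05. Of those moved by 0.5, 24% passed the study's threshold. The simulated noise was drawn separately for each gene and array, without shifts shared by many genes of an array, as seen on KO2. The rates on the real arrays can therefore differ. Sequences came from RefSeq (GRCm38.p6).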

Additional observations from a re-analysis of the deposited data

How the results depend on the processing

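In the simulation with 3 arrays per group, 0% of genes moved by 0.5 log2 unit and 40% of those moved by 1 passed the adjusted threshold. Over 16 alternatives, no carrier passed an adjusted p of 0.05 except with array weights, where 2 did (Slc25a20 and Slc25a53) beside 547 genes in all, against 63 of all genes without weights. The count of carriers higher at the study's threshold, 0, became 2 with array weights (Slc25a25 and Slc25a36) and 1 without both replicate-2 arrays, and ran from 0 to 1 as each array was left out (1 without KO2). The count of lower carriers, 2, became 0 without moderation of the variances and ran from 0 to 5 (0 without KO3 or without WT1, 1 without KO2, 3 without WT3 and 5 without KO1). The median difference ran from -0.17 to -0.025 over all alternatives, and with columns centred on one median, which moved the median of all genes to -0.087, it was -0.17.

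Replicate numbers are not known to pair the arrays. Deviations of same-numbered arrays from their group means correlated at -0.131, -0.369 and -0.133 over genes. Those of differently numbered arrays correlated at -0.452 (KO1 with WT3) to 0.441 (KO2 with WT3), with KO1 and WT2 at 0.426. With the replicate block, 0 carriers passed the adjusted limit, 2 carriers remained past the limits of the study on the lower side, the median was -0.096, and 1 gene of all genes passed the adjusted threshold against 63 without the block.

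Of 36 carriers, 25 kept the sign of their difference in every alternative in which they were tested, and for the other 11, none of which passed either threshold, it turned. The cause was not tested. Centred columns gave -0.063 for Slc25a22, -0.028 for Slc25a27, -0.058 for Slc25a32, -0.069 for Slc25a37 and -0.027 for Slc25a45. Quantile normalization gave -0.11 for Slc25a22, -0.037 for Slc25a27, -0.0038 for Slc25a32 and -0.082 for Slc25a37. Array weights gave 0.12 for Slc25a10, -0.020 for Slc25a22, -0.024 for Slc25a26, -0.069 for Slc25a32, -0.52 for Slc25a37 and -0.16 for Slc25a45. The G2/M covariate gave 0.0062 for Slc25a12 and -0.018 for Slc25a37. Without both replicate-2 arrays the values were 0.30 for Slc25a10, 0.14 for Slc25a12, -0.16 for Slc25a27, -0.0062 for Slc25a32, -0.58 for Slc25a37 and -0.16 for Slc25a45. As each array was left out, Slc25a10 ran from -0.18 to 0.22, Slc25a12 from -0.14 to 0.14, Slc25a22 from -0.098 to 0.14, Slc25a24 from -0.091 to 0.30, Slc25a27 from -0.17 to 0.24, Slc25a32 from -0.084 to 0.11, Slc25a37 from -0.34 to 0.24, Slc25a44 from -0.031 to 0.21, Slc25a45 from -0.17 to 0.22 and Slc25a51 from -0.13 to 0.0036. All counts of genes below 0 with KO2, WT1, WT2 or both KO2 and WT2 left out were added after the data were seen. They cover the carriers, the import genes, the other mitochondrial genes and the genes tied to Atf4.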
